A study of Mus musculus with 12 samples.

Results

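Rab proteins form the largest family of Ras-like small GTPases. Each Rab switches between a GTP-bound form, which sits on a membrane and recruits effectors, and a GDP-bound form, which is drawn back into the cytosol. Exchange factors load GTP, GTPase-activating proteins trigger its hydrolysis, and the different Rabs mark different compartments of the secretory and endocytic routes. In the liver these routes carry plasma proteins out of the hepatocyte and receptors and bile transporters to its surfaces. N6-methyladenosine (m6A) is a mark that the METTL3 methyltransferase places on adenosines of mRNA, mostly in long internal exons, around the stop codon and in the 3′ UTR.

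The Rab GTPase genes were chosen by name, as gene symbols made of Rab, a number and at most 1 letter. They held 68 of the 17503 m6A peaks with a gene name, in 41 of 10277 genes, and all 41 carried the term GTPase activity in the table's own annotation. The same name pattern also took in 16 peaks of 8 genes that encode partners of Rabs, such as Rab11fip1, and these were counted apart. RefSeq lists 59 protein-coding Rab genes by this pattern. The other 18 (Rab3a, Rab3c, Rab5a, Rab5b, Rab6b, Rab7b, Rab9b, Rab13, Rab19, Rab25, Rab26, Rab31, Rab33a, Rab34, Rab36, Rab38, Rab39b and Rab42) were not analysed here.

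The libraries came from livers of C57BL/6 mice, either wild type or Mettl3-deficient, and all were made from poly(A) RNA. Each genotype gave 3 precipitated (IP) libraries, pulled down with an anti-m6A antibody, and 3 input libraries, so that there were 12 in 4 groups. The series title places the livers after birth, but the age of the mice, the Mettl3 allele and the cells in which it was disrupted were not stated in these sources. All 6 hepatocyte marker genes looked up (Alb, Ttr, Apob, Hnf4a, Cyp2e1 and Serpina1a) held listed peaks, although a peak list gives no expression level. The values are those of 1 comparison between the genotypes, with a log2 fold change and the log10 of a false discovery rate (FDR) for each peak. A peak was called when its FDR was 0.05 or below. The sources used here do not say which genotype is the numerator. Since METTL3 writes m6A, a negative value likely means less m6A signal in Mettl3-deficient liver, but only negative and positive are used below. No value per library was used, so the depth and the spread between mice are unknown for every peak, and a change in how many cells of a type were present cannot be told apart from a change per cell.

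Some of the called peaks reached into the first 50 bases of a transcript, and the sequences there are shown for how these Rab genes begin. An anti-m6A antibody also binds m6Am, a methylated adenosine that can stand as the first base after the cap, so the first transcribed base is given as a capital. The windows below are from RefSeq (GRCm38.p6), 5′ to 3′ on the gene's strand, and hold 10 bases before the start and 20 from it. The first 8 genes, in order of number, had a called positive peak reaching into those 50 bases, and Rab11b and Rab21 a called negative one. The peaks of Rab1a, Rab8a and Rab24 begin only after the printed window. That of Rab22a begins within the window but after its first transcribed base. Rab7 is shown at the outer of its RefSeq starts. Rab15, also positive, is not shown, since its peak of 62020 bp spans several RefSeq starts.
Rab1a (chr11:20201402-20201431, plus strand): aggcttccccAgttcctggttcgccggcgg
Rab7 (chr6:88045251-88045280, minus strand): ggcgtcgggcGtctcgtgacagacacttcc
Rab8a (chr8:72161190-72161219, plus strand): tttttcccctGggctctctgcgacaggcgg
Rab11a (chr9:64737737-64737766, minus strand): gaagtgacgcAtacagggcggggctcgtca
Rab22a (chr2:173659835-173659864, plus strand): cggggaggtcAggtgacccagctggcgtcc
Rab24 (chr13:55321961-55321990, minus strand): cggcgcccgcGtcacgtgaccgggcgtccc
Rab29 (chr1:131867267-131867296, plus strand): ggacggggacCggacaaggactctgcacaa
Rab32 (chr10:10558188-10558217, minus strand): gggtgcacccAgactgttctgggccagcag
Rab11b (chr17:33760467-33760496, minus strand): cgcattccttCcgcctttctccgggagacc
Rab21 (chr10:115315572-115315601, minus strand): gtaggaggaaGgagacgccattagagggag

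Across the family, more Rab peaks were positive than negative, while the larger changes were mostly negative, as they were over the whole list. By the deposited FDR, 52 of the 68 peaks were called (76.2% of all listed peaks were), 21 negative and 31 positive. That is 30.9% negative and 45.6% positive, against 40.6% and 35.6% of all listed peaks. This difference from the other genes was not tested. The called negative changes ran from -2.26 to -0.23 on the log2 scale with a median of -1.36, and 13 of the 21 reached an absolute value of 1. The called positive changes ran from 0.34 to 1.24 with a median of 0.74, and 4 of the 31 reached 1. Over all listed peaks the same medians were -1.34 and 0.73. There 71.3% of the called negative and 21.9% of the called positive changes reached 1, against 61.9% and 12.9% in the Rab genes. The median of all 68 Rab peaks was 0.60, and that of all listed peaks 0.34. Of the Rab peaks, the last one called was in Rab11b (log10 FDR -1.42) and the first one not called in Rab35 (-1.02), in the authors' deposited table.

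By gene, the split was nearly even. The leading peak of a gene, the one with the smallest FDR, was negative and called in 16 Rab genes, positive and called in 15 and not called in 10. Of all genes 81.1% had a called leading peak, 47.6% negative and 33.6% positive. Negative called peaks alone were found in 11 Rab genes, positive ones alone in 14, and both signs in 6 (Rab1a, Rab8a, Rab14, Rab32, Rab40c and Rab43). That is 26.8%, 34.1% and 14.6% of the Rab genes, against 36.8%, 31.9% and 12.4% of all genes, so genes of mixed sign were about as frequent in the whole list.

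Most Rab genes held a single peak. There were 23 with 1 peak, 11 with 2, 6 with 3, and 1, Rab43, with 5. This made 1.66 peaks per gene against 1.70 over all genes, and 56.1% with a single peak against 55.3%. Some rows of the list overlap one another, as in Rab43, Rab4b, Rab2b and Rab11b. Joining the overlapping peaks of each gene left 62 separate places, with 26 genes at 1 place, 9 at 2 and 6 at 3.

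**Figure D1:**
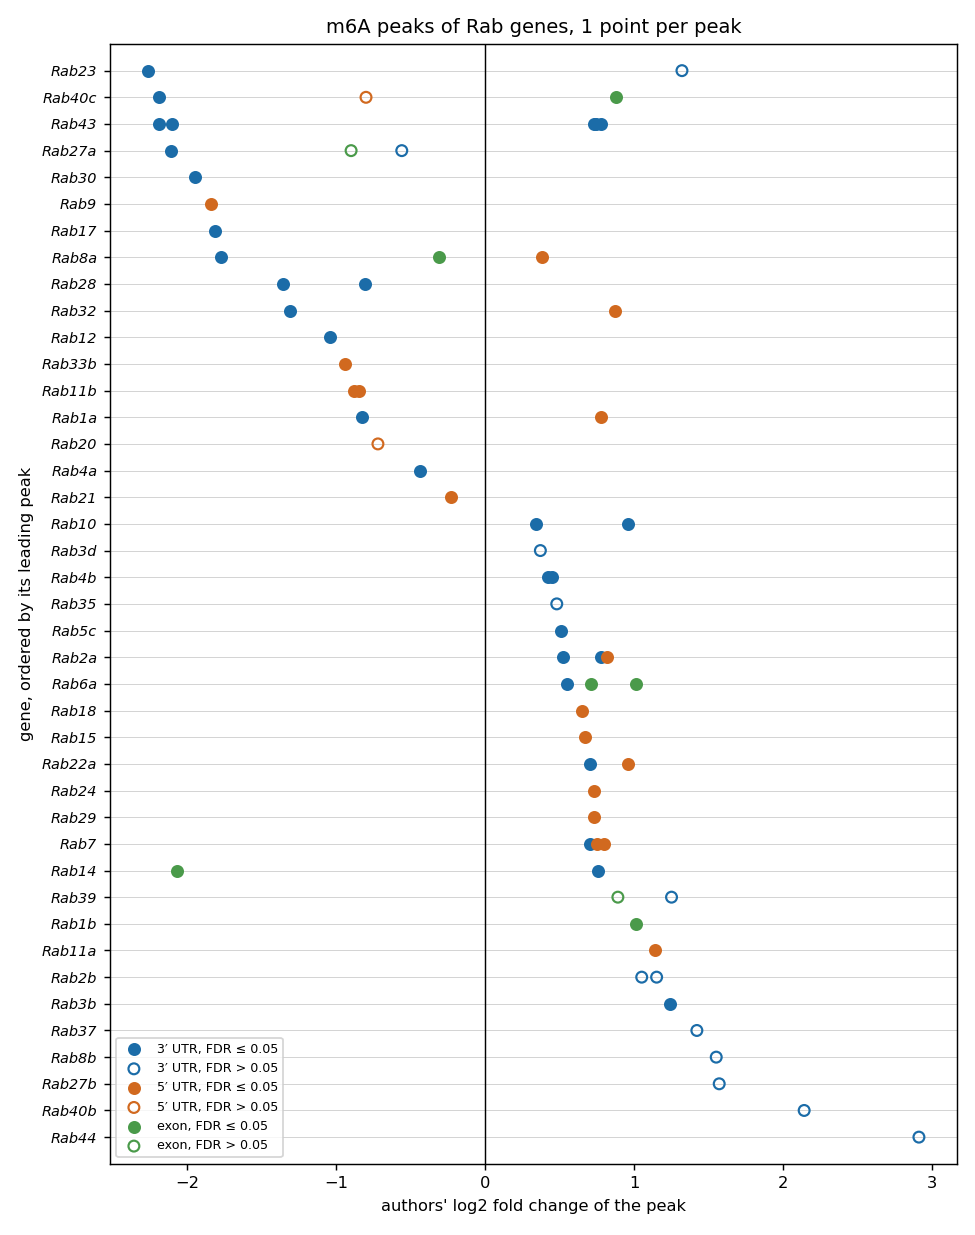
The log2 fold change from the authors' deposited table (x axis) is plotted for each of the 68 peaks, 1 point per peak, with the 41 genes ordered by their leading peak (y axis), the feature as colour, and filled points for an FDR of 0.05 or below. The called negative points reach -2.26 in Rab23, the called positive ones stop at 1.24 in Rab3b, and the points farthest to the right, in Rab44 and Rab40b, are open.

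By the authors' labels, 41 of the Rab peaks lay in a 3′ UTR, 19 in a 5′ UTR and 8 in another exon. In the 3′ UTR, 14 were negative and 15 positive, where 81% of all 3′ UTR peaks were called, 48.9% negative and 32.1% positive. In the 5′ UTR, 5 were negative and 12 positive, where 76.4% of all 5′ UTR peaks were called, 23% negative and 53.4% positive. In other exons, 2 were negative and 4 positive, where 62.5% of all exon peaks were called, 38.6% negative and 23.9% positive. Whether Rab genes differ from the rest in any of these features was not tested.

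Within the 3′ UTR, the sign went with the distance from the end of the gene. Each 3′ UTR peak was placed by the distance from its downstream edge to the RefSeq 3′ end, a sorting chosen after the data were seen. Of 21 Rab peaks within 100 bp of that end, 12 were positive and 4 negative. A further negative Rab peak lies there, that of Rab9, which carries a 5′ UTR label. With peaks of any label there were 12 positive and 5 negative, where 81.9% of all such peaks were called, 33% negative and 48.9% positive. Of 19 Rab peaks farther inside, 10 were negative and 3 positive. Some of these 3′ UTR peaks overlap, as in Rab43 and Rab4b. With overlapping peaks of the same sign counted once, 9 were positive and 4 negative near the end. Inside it, 9 were negative and 3 positive. Over all genes, 82.1% of the 3′ UTR peaks near the end were called, 32.5% negative and 49.7% positive. Of those inside, 80.7% were called, 59.9% negative and 20.8% positive. The remaining Rab peak, of Rab35, lay 428 bp past the end and was not called, where 74.6% of such peaks were called, 41.7% negative and 32.9% positive. The order of both zones was the same in Rab genes and in the table as a whole. The median of the called Rab peaks was 0.625 near the end and -1.77 inside it, against 0.49 and -1.14 over all called 3′ UTR peaks. Wide peaks reach over both zones: the 4 negative peaks near the end had a median genomic width of 491.5 bp and the 12 positive ones of 210.0 bp, against 621.0 and 271.0 bp over all genes. Farther inside, the 3 positive Rab peaks had a median width of 15024 bp and the 10 negative ones of 508.0 bp. Over all genes these were 360.0 and 659.0 bp.

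**Figure D2:**
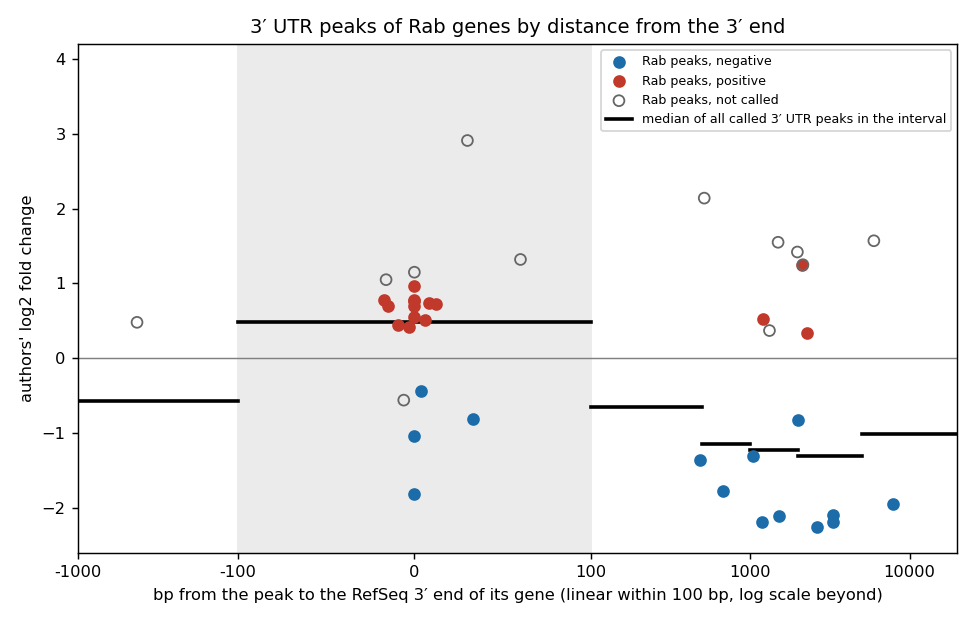
The log2 fold change from the authors' deposited table (y axis) is plotted against the distance in bp from the peak to the RefSeq 3′ end of its gene (x axis, linear within 100 bp, shaded, and logarithmic beyond), 1 point per 3′ UTR peak of a Rab gene, with black lines for the median of all called 3′ UTR peaks in each interval. In the shaded zone 12 called Rab peaks are positive and 4 negative, and to its right 3 are positive and 10 negative.

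**Figure D3:**
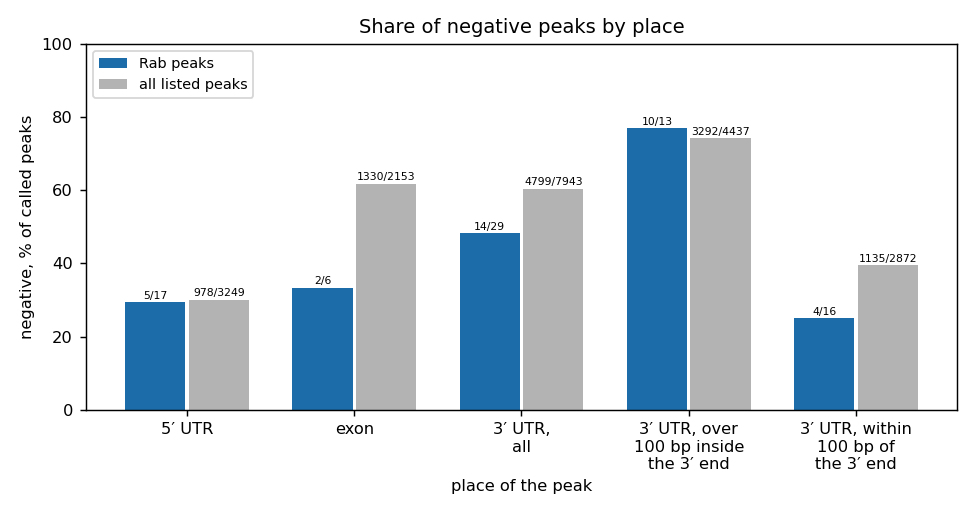
Bars show the percentage of called peaks that were negative (y axis, from 0) by the place of the peak (x axis), for Rab peaks in blue and all listed peaks in grey, with the counts above each bar. Of the called Rab peaks 10 of 13 are negative well inside the 3′ end and 4 of 16 near it, with overlapping peaks counted apart. The grey bars show the same order.

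Among the Rabs of the endoplasmic reticulum and the Golgi, Rab43 and Rab30 were strongly negative, whereas Rab1b, Rab2a, Rab6a and Rab18 were positive throughout. These 9 genes held 19 peaks, of which 5 were negative, 12 positive and 2 not called, and 3 of the positive ones overlap at a single place of Rab43. Of all listed peaks 40.6% were negative and 35.6% positive, the shares to read beside the counts of each role, and no role was tested against them. Rab43, a Rab of the Golgi, showed both zones of the 3′ UTR in 1 gene. On chromosome 6 (mm10), where RefSeq places Rab43 at 87788853 to 87812164, 2 overlapping peaks at 87792168 to 87794132 and 87792154 to 87794885 had -2.19 and -2.10 by the authors' deposited table. Both had a log10 FDR of -434, the lowest score in the list, shared by 485 peaks. The other 3 peaks overlap each other at the very end of the gene, 0, 8 and 12 bp from it, and stood at 0.78, 0.74 and 0.73 there (log10 FDR -4.28, -4.34 and -4.28). The inner place was thus negative, with a ratio of 0.219, and the terminal place positive.

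Rab30, also of the Golgi, had a single peak at -1.95 (log10 FDR -48.8) in its 3′ UTR, 7874 bp before the RefSeq end, in the authors' deposited table. Rab33b, which acts at the Golgi and in autophagosome formation, had -0.94 in the 5′ UTR (log10 FDR -1.91) there. Rab1a and Rab1b act in transport from the endoplasmic reticulum to the Golgi, and their leading peaks differed in sign. For Rab1a the authors' deposited table gives -0.83 in the 3′ UTR (log10 FDR -14.6) and 0.78 in the 5′ UTR (-10.6), and for Rab1b 1.01 in exon 2 (-20.6). The 5′ UTR peak of Rab1a is 14247 bp wide on the genome and begins just after the window printed above.

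The 3 peaks of Rab2a, which works between the Golgi and the endoplasmic reticulum, had values in the authors' deposited table of 0.82 (5′ UTR), 0.52 and 0.78 (both 3′ UTR). The second of them is 33932 bp wide on the genome, introns included. Rab6a, a Rab of Golgi transport, had 1.01 and 0.71 in exons 5 and 6 and 0.55 at its 3′ end in the authors' deposited table. All 6 of these peaks were called and positive, so neither gene had a negative place. Rab18, which acts at lipid droplets, has 0.65 in the authors' deposited table (log10 FDR -4.61). That peak is 44341 bp wide and also covers the RefSeq gene Gm7466, so it is tied to Rab18 by the authors' label. Rab2b was not called, at 1.15 and 1.05 in the authors' deposited table.

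Among the Rabs of early and recycling endosomes, the single peak of Rab17 and an exon peak of Rab14 were strongly negative, and the called positive values ran up to 1.14 in Rab11a. These 11 genes held 15 peaks, 6 negative, 8 positive and 1 not called, beside 40.6% negative and 35.6% positive over the whole list. Rab17, an epithelial Rab of apical recycling, had 1 peak, at 90958133 to 90958846 on chromosome 1, which ends exactly at the RefSeq end. Its value in the authors' deposited table was -1.81 (log10 FDR -205), the most negative of the Rab 3′ UTR peaks near the gene end. Rab14, which shuttles between endosomes and the Golgi, held -2.07 in an exon (log10 FDR -4.22) and 0.76 at its 3′ end (-9.42) in the authors' deposited table. The exon peak lies 450 bp from a transcript start by the deposited distance. Its exon label names a transcript with this exon alone, which need not be the same transcript.

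The recycling Rabs Rab11a and Rab11b had peaks over the transcript start only, of opposite sign. In the authors' deposited table Rab11a has 1.14 (log10 FDR -2.03), and the overlapping peaks of Rab11b at -0.85 (-3.03) and -0.88 (-1.42). The Rab11b peaks also lie over the RefSeq gene Gm17251, and the share of reads from it was not tested. For the fast recycling pair the authors' deposited table gives Rab4a -0.44 (log10 FDR -5.60) and Rab4b 0.45 and 0.42 (-3.68 and -3.07), each at the 3′ end of the gene. The authors' deposited table puts Rab5c, which drives fusion of early endosomes, at 0.51 (log10 FDR -53.4), at its 3′ end.

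Rab22a, of early endosomes and recycling, was positive at both ends, with 0.96 at the start and 0.70 at the 3′ end in the authors' deposited table. Rab15 was positive, at 0.67 in the authors' deposited table, in a peak of 62020 bp that also spans Churc1, Fntb, Gpx2 and Gm34988. Rab21, of early endosomes and integrin traffic, had the smallest called change of the family, -0.23 in the authors' deposited table (log10 FDR -2.38), in a peak of 24953 bp. Rab35, a recycling Rab, was not called, at 0.48 in the authors' deposited table.

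Among the Rabs of late endosomes, lysosomes and autophagy, Rab9, Rab32 and Rab12 were negative and Rab7, Rab24 and Rab29 positive. The 7 genes held 10 peaks, 3 negative, 6 positive and 1 not called, beside the same 40.6% and 35.6%. Rab9, which returns receptors from late endosomes to the Golgi, had -1.84 with a log10 FDR of -434 in the authors' deposited table. Its peak is labelled 5′ UTR, but it spans 166457253 to 166458897 on chromosome X. The downstream edge of the peak lies 2 bp from the RefSeq 3′ end, and its upstream edge 20970 bp from the transcript start. Rab32, of lysosome-related organelles, differed between its ends. In the authors' deposited table its 3′ UTR peak stood at -1.31 (log10 FDR -44.4), 1042 bp before the gene end, and the one at its start at 0.87 (-1.53). Rab12, of lysosomes and autophagy, had -1.04 in a peak of 1071 bp up to the gene end (log10 FDR -54.4 in the authors' deposited table).

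Rab7, the central Rab of late endosomes and lysosomes, was positive at all 3 of its places. The authors' deposited table gives 0.80 at the start (log10 FDR -1.52), 0.75 in a wide peak labelled 5′ UTR (-18.7) and 0.70 at the 3′ end (-12.0). Rab24, an autophagy Rab, and Rab29, of the Golgi and lysosomes, each stood at 0.73 at the start in the authors' deposited table (log10 FDR -7.43 and -1.56). Rab20, a phagosome Rab, was not called, at -0.72 there. That peak lies just outside the RefSeq span of Rab20 and overlaps the RefSeq gene E230013L22Rik, so it is tied to Rab20 by the authors' label.

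Among the Rabs of secretion and the plasma membrane, 3 of 13 peaks were negative, 4 positive and 6 not called, in 8 genes, where 76.2% of all listed peaks were called, 40.6% negative and 35.6% positive. Rab27a drives the release of secretory granules and exosomes. Its 3 peaks stood at -2.11 (log10 FDR -11.5), -0.90 (-0.42) and -0.56 (-0.68) in the authors' deposited table, and the first alone was called, 1515 bp before the gene end. Rab8a, which carries membrane to the cell surface and the cilium, went from positive to negative along the gene. In the authors' deposited table its values were 0.38 in the 5′ UTR (log10 FDR -5.43), -0.31 in exon 4 (-5.41) and -1.77 in the 3′ UTR (-110), the last 670 bp before the gene end.

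Rab10, which moves glucose transporter vesicles, had 0.34 and, at the gene end, 0.96 for its 3′ UTR peaks by the authors' deposited table. The first of them is 15024 bp wide on the genome, introns included. Both peaks overlap Rab10os, a long noncoding RNA gene, and its part in the values was not tested. Rab3b, of regulated exocytosis, had the highest called value of the family, 1.24 (log10 FDR -2.08), in the authors' deposited table. Rab3d, Rab8b, Rab27b and Rab37 were not called, with values between 0.37 and 1.57.

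The last Rabs are less studied or act in cilia and ubiquitin ligases, and here 4 of 11 peaks were negative, 1 positive and 6 not called, in 6 genes, beside 40.6% negative and 35.6% positive over the whole list. Rab23, a negative regulator of hedgehog signalling, held the most negative Rab peak, at 33739334 to 33739932 on chromosome 1. Its value in the authors' deposited table was -2.26 (log10 FDR -33.0), a ratio of 0.209, while a second peak 60 bp from the gene end stood at 1.32 and was not called (-0.46). Rab40c, a subunit of cullin ubiquitin ligases, had -2.19 in the 3′ UTR (log10 FDR -40.5), 0.88 in an exon (-3.10) and -0.80 at the start (-0.61, not called) in the authors' deposited table. The positive exon peak overlaps Cox7c-ps1, a pseudogene inside Rab40c, and its exon label names a gene identifier other than that of Rab40c. Rab28, a Rab of cilia, was negative at both of its 3′ UTR peaks in the authors' deposited table. It stood at -1.36 (log10 FDR -22.2) 483 bp before the gene end and -0.81 (-1.68) 33 bp before it. The highest values of the family, 2.91 in Rab44 and 2.14 in Rab40b, were not called (log10 FDR -0.39 and -0.95 in the authors' deposited table), nor was Rab39.

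**Figure D4:**
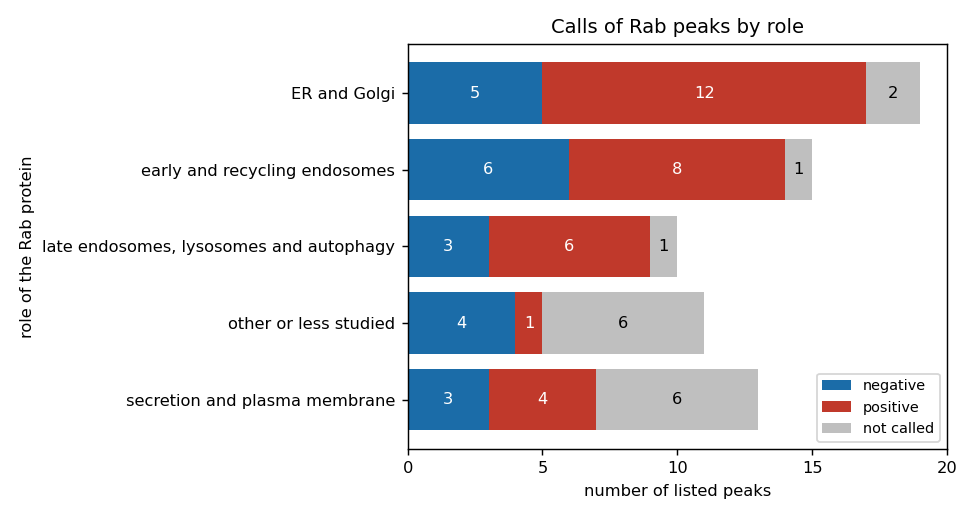
Bars show the number of listed Rab peaks (x axis) by the role of the protein (y axis), split into called negative (blue), called positive (red) and not called (grey). Positive peaks are the larger part in the first 3 roles, with 12 of 19 in the endoplasmic reticulum and Golgi, and 6 peaks each were not called in the last 2.

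Genes of the same number encode closely related proteins, and 8 pairs had listed peaks. Both leading peaks were called in 3 pairs (Rab1, Rab4 and Rab11), each time with opposite signs. In the other 5 (Rab2, Rab3, Rab8, Rab27 and Rab40) only 1 gene was called, so their directions cannot be compared by call. The values had the same sign in 2 of these, with 0.52 and 1.15 for Rab2a and Rab2b and 1.24 and 0.37 for Rab3b and Rab3d in the authors' deposited table. For Rab8, Rab27 and Rab40 the authors' deposited table gives -1.77, -2.11 and -2.19 for Rab8a, Rab27a and Rab40c and 1.55, 1.57 and 2.14 for Rab8b, Rab27b and Rab40b, the last 3 not called. The difference within a pair was not tested, since no error per peak is known, and reads of similar stretches may be shared between such genes. The called peaks compared also lie in different features in Rab1, where one is in the 3′ UTR and the other in an exon. Rab1a had a called 5′ UTR peak of 0.78 as well, of the same sign as Rab1b.

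Within a gene, both zones of the 3′ UTR could be compared in 6 Rab genes. In 4 of them the leading peaks of both zones were called: Rab43 was positive at the end and negative inside, Rab2a and Rab10 positive in both, and Rab28 negative in both. In the authors' deposited table the inside value was the lower in all 4 (0.34 against 0.96 in Rab10, 0.52 against 0.78 in Rab2a, -1.36 against -0.81 in Rab28). The inside peaks of Rab10 and Rab2a are 15024 and 33932 bp wide on the genome, introns included, so they are no narrow inner sites. In Rab23 and Rab27a only the inside peak was called. Over all genes, 610 had called peaks in both zones, of which 277 were positive at the end and negative inside, 23 the reverse, 119 positive in both and 191 negative in both, with a median difference, inside minus end, of -1.18.

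At the transcript start, 13 Rab peaks in 12 genes covered some of the first 50 transcribed bases of a RefSeq start, and 9 of them were positive, 3 negative and 1 not called. Of all 2302 listed peaks at a RefSeq start 79.2% were called, 58.7% positive and 20.5% negative, so mostly positive starts were common to the whole list. The Rab peaks reached 16 RefSeq starts, of which 5 began with A (Rab1a, Rab11a, Rab22a, Rab32 and 1 start of Rab15), while 34.4% of the 32851 starts in the table did. The peaks of Rab1a and Rab22a do not cover that first base itself. Rab11b began with C and Rab21 with G. The letters GGAC are the core of the common m6A motif. On the transcript's strand they were found in the first 50 bases of 3 of the 16 starts, against 18.9% of all starts. Apart from the start of Rab29, those 3 were starts of Rab15 under its single peak of 62020 bp. On the other strand 7 of the 16 held the letters, against 17.4%. Rab29 shows the motif just after its first base in the window above. A match of letters is a description of these windows and no evidence of a methylated base.

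Among the genes whose products act on Rabs, 19 of 29 exchange factor genes were negative and 10 positive by their called leading peaks, where 47.6% of all genes were negative and 33.6% positive. Of the GTPase-activating protein genes 15 of 28 were negative, 8 positive and 5 not called, and of effector genes 19 of 39 were negative, 15 positive and 5 not called. The list of genes that prenylate Rabs or cycle them through the cytosol also holds Yip proteins and Rabif. It had 4 of 12 genes negative, 7 positive and 1 not called. In the authors' deposited table the exchange factors include Ankrd27 (-1.81), which acts on Rab21, and Dennd1c (-1.79). The authors' deposited table gives -1.44 for Tbc1d9b and -1.89 for Usp6nl among the GTPase-activating proteins, and -1.66 for Vps39, a subunit of the lysosomal HOPS tether, and -2.18 for Mical3 among the effectors. For this prenylation and recycling list the authors' deposited table gives -2.98 for Yipf5, -2.37 for Rabif, -1.09 for Yipf3 and -0.94 for Yipf2. The positive ones named here were chosen after their values were seen. They include Gdi2 (0.53), which extracts Rabs from membranes, in the authors' deposited table. Rabggta (1.09) and Rabggtb (1.26), the subunits of the enzyme that prenylates Rabs, are also among them. Yipf1 (1.12) and Yipf6 (0.77) were called positive there as well, so the Yip genes had both signs. Median leading values were -1.26 for exchange factors, -0.82 for GTPase-activating proteins, -0.68 for effectors and 0.73 for prenylation and recycling. For the Rabs themselves the median was 0.48, and for all genes -0.52. The Rab median takes in 10 leading peaks that were not called. Of those only that of Rab20 (-0.72) was negative, and the rest ran up to 2.91 in Rab44. The called leading peaks of the Rabs were nearly evenly split, 16 negative and 15 positive. More negative than positive genes was the pattern of the whole list too, and none of these lists was tested against it or against the others.

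Markers of other liver cell types also held listed peaks. By leading peak, where 47.6% of all genes were negative and 33.6% positive, endothelial markers had 0 negative and 5 positive of 7 looked up, and stellate cell and fibroblast markers 0 negative, 4 positive and 1 not called of 7. Macrophage and leukocyte markers had 1 negative, 3 positive and 1 not called of 7, and cholangiocyte markers 2 negative of 6. The 6 hepatocyte markers split into 3 negative and 3 positive. The part of cell composition in the Rab values was not tested.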

How the data were processed

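The Rab genes and the lists were chosen with earlier results of these data known. Per the submitters' processing notes, HISAT2 2.1.0 and the mouse build mm10 were used. How peaks were called and filtered, how replicates entered and which test gave the FDR is not given in the sources used here. The authors deposited 1 table, with a log2 fold change, a log10 FDR and a p-value of 2 decimals for each peak, per the file headers. Both the log2 fold change and the log10 FDR are handled as a score here, because the deposited FDR has a floor (-434, next -321) and 189 of the 17692 rows, without a gene name, hold their last cells in another order. Those rows were left out. Other deposited measures are positions, widths (introns included) and distances.

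No library's values were used, so the count model planned for such values could not be fitted, and no new test was run. Calls used the deposited FDR at 0.05, and ties for a leading peak went to the larger change. The text gives full values for the 10 most negative and 10 most positive called leading peaks, genes with both signs or at least 3 peaks, and pairs of the same number. Of other lists it gives up to 4 called genes by FDR, and further positive ones of the prenylation and recycling list. All 41 Rab symbols matched RefSeq (GRCm38.p6, the build of mm10). Strand came from the RefSeq promoter table for 34 Rab genes and from the deposited distance for 6. Where both existed they agreed in 27 of 27 Rab genes and 93.4% of 6623 genes. Rab18 had no strand, and of 9804 3′ UTR peaks 9560 could be placed. The steps were tested on simulated data. Python 3.11.15, numpy 2.4.6, pandas 2.3.3 and matplotlib 3.10.9 were used.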

Additional observations from a re-analysis of the deposited data

How the results depend on the processing

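No paired analysis was possible because the table holds no values per library, and for the same reason no replicate could be left out. Depth and precision of single peaks are unknown. The counts of 21 negative and 31 positive Rab peaks became 18 and 28 at an FDR of 0.01, and 27 and 36 with every name that starts with Rab and a digit. With only changes of 1 or more on the log2 scale they fell to 13 and 4, the positive leading peaks to 3, and the median of the peaks kept turned to -1.81. That follows from the construction, since few positive Rab changes are that large. Positive peaks numbered 20 among peaks of up to 1000 bp and 15 in the 3′ UTR alone, where 9 genes had a positive leading peak. The median of 0.60 moved to 0.26 once the median of the whole list was subtracted, to 0.465 with every name of the pattern, to 0.70 with peaks of up to 1000 bp, to 0.66 with peaks over their RefSeq gene and to 0.51 in the 3′ UTR. After that subtraction 30 of the called peaks were positive. These alternatives were set at the start. Added after the data were seen, the counts by distance from the 3′ end kept within 1.5 times their values at 50, 200 and 500 bp and under the other alternatives tried, peaks of any label included, except that positive peaks inside the end fell from 3 to 1 among peaks of up to 1000 bp.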

Other observations

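The partner genes that share the Rab name pattern had 6 negative, 5 positive and 5 uncalled peaks of 16, beside 40.6% negative and 35.6% positive of all listed peaks. Rab11fip1, an effector of Rab11, had 3 called negative 3′ UTR peaks of -1.17, -1.55 and -1.54 in the authors' deposited table, the last 2 overlapping, and an uncalled one of -0.99 at the gene end. Rab11fip3, of the same family, stood at -0.95 inside its 3′ UTR and at 0.99 at the gene end in the authors' deposited table, both called. Rab3ip, an exchange factor for Rab8, had -1.30 in the 3′ UTR and 0.44 in an exon in the authors' deposited table, both called. Rab3gap1, a subunit of the complex that acts on Rab3 and Rab18, stood at -1.79 in the authors' deposited table. Rab3gap2, of the same complex, had a called positive peak of 0.57 there. Rab3il1 (0.41) and Rab5if (0.20) were called positive too.

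Among other small GTPases, 19 Arf and Arl genes had 7 negative, 7 positive and 5 uncalled leading peaks, where 47.6% of all genes were negative and 33.6% positive. The 21 Ras genes had 10 negative, 8 positive and 3 uncalled. Called 3′ UTR peaks near the gene end were negative in 3 of 14 for Rab exchange factors, 6 of 8 for GTPase-activating proteins and 6 of 12 for effectors. Those farther inside were negative in 21 of 23, 14 of 17 and 18 of 25. Over all called 3′ UTR peaks 39.5% were negative near the end and 74.2% inside. The GTPase-activating proteins were mostly negative in both zones. No difference between zones or lists was tested.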
